A study of Bos taurus with 48 samples.

Results

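The livers of 6 cows fed milk replacer ad libitum and of 6 cows fed a restricted amount of it were compared across all miRNAs of a bovine miRNA-seq series. They are 12 of the 48 samples of the series and were chosen by their labels alone. The tissue was put into RNAlater right after slaughter, and total RNA was made into small RNA libraries by adaptor ligation. The labels give no breed, sex, age, duration of feeding or batch, and they do not say which animals were handled together. All 12 animals received milk replacer, so the comparison is one of amount, and both groups carry that diet. The 5 livers of the control feeding group were kept out of the fit and serve as a background. The labels give each library a number, which is used here as its name (ad libitum 3, 6, 7, 9, 11 and 15, restricted 4, 5, 8, 10, 13 and 16).

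A miRNA is a short RNA that guides a silencing complex to messenger RNAs, mostly by pairing of its bases 2 to 8, the seed, with the target. The liver is made up largely of hepatocytes, whose miRNA pool is led by a small number of species such as miR-122, which is linked to lipid metabolism. Blood cells, endothelium, stellate cells and bile duct epithelium add miRNAs of their own. In bulk tissue, fewer cells of a type and less RNA per cell cannot be told apart.

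Sequences are shown for 4 miRNAs described here that the study assayed in its supplement, as DNA letters from 5′ to 3′ with the seed in capitals. They stand for the leading miRNA with a higher mean in ad libitum livers (miR-708) and a miRNA of the imprinted DLK1-DIO3 region (miR-433). The others are a member of the miR-30 family (miR-30c), whose members of the same arm share the printed seed, and the main erythrocyte miRNA (miR-451). The letters are those of the assays, which carry human names.
miR-708: aAGGAGCTtacaatctagctggg
miR-433: aTCATGATgggctcctcggtgt
miR-30c: tGTAAACAtcctacactctcagc
miR-451: aAACCGTTaccattactgagtt

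The authors had normalized the read counts with a size factor for each library. The worth of 1 read could be seen in the values, since those of a library were whole multiples of it (tolerance 0.01), and the smallest value above 0 was that of 6 reads. A listed 0 thus leaves room for as many as 5 reads. Of the 524 miRNAs in the table, 240 were above 0 in every one of the 12 livers and 143 were at 0 in every one. The 30 pairs of libraries within a feeding group all differed by more than counting error (lowest chi-square per degree of freedom 83.3). None was thus a copy of another. This check cannot show that each library is a different animal, and each was counted as 1 sample by its label.

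Liver markers fitted the tissue label. miR-122 ranged from 284363 to 987770 over the 12 livers, with a median of 559900, against a median of 70.7 in the 24 mammary samples of the milk replacer groups. miR-205, a miRNA of basal and squamous epithelium, was at 0 in 11 of the 12 livers and had a median of 3991 in the mammary samples.

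Depth differed more within the feeding groups than between them. The estimated reads were 826776 at the lowest, 2128834 at the median and 5146724 at the highest in ad libitum livers, against 1581934, 2550188 and 4857078 in restricted livers. The difference of the mean log2 reads was -0.20 and did not pass the exact permutation test over all 924 groupings of the libraries (two-sided p = 0.682, smallest possible p 0.00216). The shallowest library was ad libitum 6, and the deepest was ad libitum 9. The livers were also shallower than the other tissues of the same feeding groups, with a median of 2207364 reads against 6115032 in the fat pad and 8074550 in the mammary parenchyma.

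The number of miRNAs above 0 averaged 304.5 ± 28.4 in ad libitum livers and 304.3 ± 22.1 in restricted livers (SD, n = 6 each, exact permutation p = 1). Within the 12 libraries this number followed depth: Pearson's r with log2 reads was 0.91 and Spearman's rho was 0.84 (n = 12, permutation p = 8e-05 and 0.00091, adjusted over 5 relations 0.0002 and 0.00227). Without the 2 libraries farthest from the median depth, ad libitum 6 and ad libitum 9, r was 0.86. Within the 6 ad libitum livers it was 0.96, and within the 6 restricted livers 0.86. When each library was thinned to 826776 reads, with the floor of 6 reads kept, 264 ± 7.08 miRNAs were left above 0 in ad libitum livers and 257 ± 8.42 in restricted livers (exact permutation p = 0.186).

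**Figure D1:**
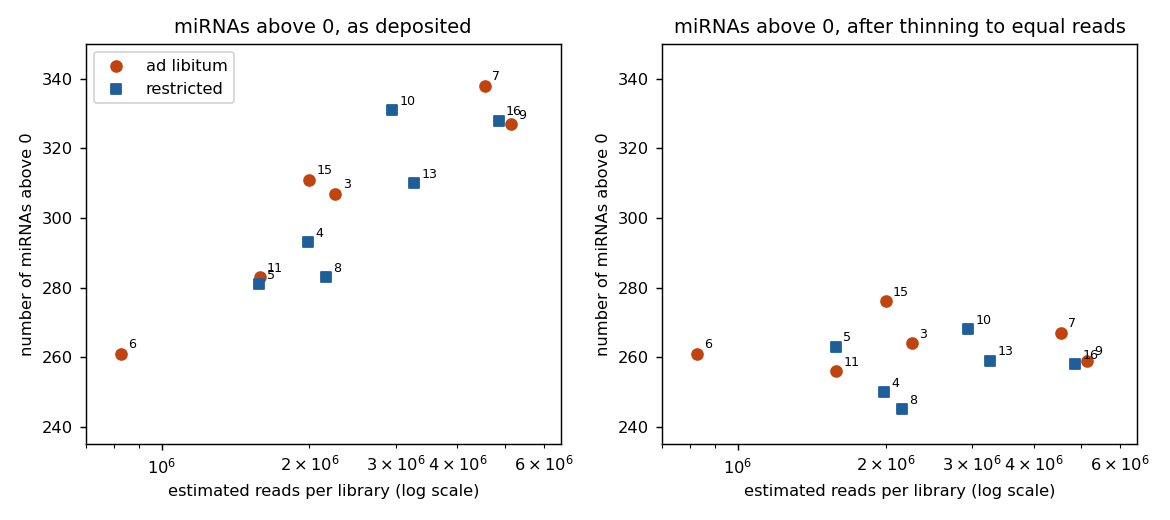
Number of miRNAs above 0 (y axis) against the estimated reads per library (x axis, log scale) for the 6 ad libitum and 6 restricted livers, as deposited (left) and after thinning every library to 826776 reads (right). Each point is 1 library with its number. The deposited numbers climb from 261 in ad libitum 6 to 338 in ad libitum 7, while the thinned numbers lie between 245 and 276.

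Few miRNAs were seen in 1 feeding group only. 23 were above 0 in ad libitum livers and at 0 in all restricted livers, and 19 of these were in 1 library. In the other direction there were 14, of which 10 were in 1 library, and the one seen in most libraries was miR-17-3p, in 3 restricted livers. The highest value among them was 78.8, for miR-11987 in an ad libitum liver, so none of these miRNAs was abundant.

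The same miRNAs led in both groups. miR-148a, which is abundant in hepatocytes and was the most abundant miRNA of the 12 livers, held 10.4% to 21.2% of the sum of values in a library. miR-122 held 5.97% to 16.8% and miR-192, a miRNA of liver and gut epithelium, 5.97% to 14.1%. One of these 3 was the top miRNA in each library. The 10 most abundant miRNAs of each library together held 65.2% ± 2.72 in ad libitum livers and 67.4% ± 2.69 in restricted livers (SD, n = 6 each, exact permutation p = 0.19). These need not be the same 10 in every library.

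The samples did not separate by feeding. Over the 308 miRNAs with a mean of at least 10, the groups accounted for 6.38% of the squared distances between samples on the log2(value + 1) scale (exact permutation p = 0.881). Spearman's rho between libraries had a median of 0.961 over the 15 ad libitum pairs, 0.963 over the 15 restricted pairs and 0.962 over the 36 pairs across the groups. The nearest library was one of the same group for 5 of the 12.

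The first principal component of these 308 miRNAs held 26.9% of the variance and followed depth. Its score was -28.2 in ad libitum 6 and -14.0 in restricted 5, while the other libraries lay between -2.95 and 10.4. Its correlation with log2 reads was r = 0.85 and rho = 0.97 (n = 12, permutation p = 3e-05 for r and 1e-05 for rho, the smallest that 100000 resamples can give, adjusted over the 5 relations 0.00015 and 5e-05). Without ad libitum 6 and ad libitum 9 r was 0.73, and it was 0.82 within the ad libitum livers and 0.91 within the restricted livers. All of the 15 miRNAs with the largest weights on it were at 0 in at least 1 library. The second component (17.4%) had r = 0.02 with depth (rho = -0.15, permutation p = 0.95 and 0.633, adjusted 0.95 and 0.633).

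Over the 240 miRNAs above 0 in all 12 livers, the first component held 33.2% of the variance, with r = -0.50 and rho = -0.58 with depth (permutation p = 0.0937 and 0.0519, adjusted 0.156 and 0.0865). Its score ran from -7.27 in ad libitum 9 and -7.09 in ad libitum 11 up to 8.23 in ad libitum 15, so that libraries of 1 feeding group stood at both ends. The groups differed most on the third component (11.6%), with a mean score of -2.33 in ad libitum livers and 2.33 in restricted livers (exact permutation p = 0.00866, adjusted over the 6 components tested 0.0519). Its largest weights fell on miR-24, miR-1 and miR-133a, whose values are described below, so it is not a separate line of evidence.

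**Figure D2:**
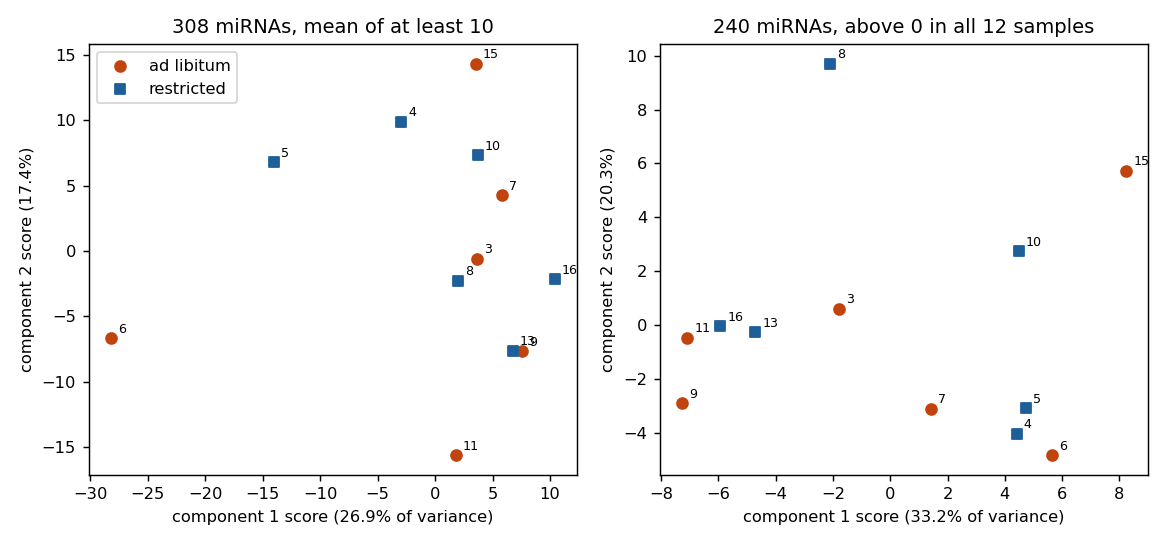
Scores on the first and second principal components of log2(value + 1) for the 6 ad libitum and 6 restricted livers, over 308 miRNAs with a mean of at least 10 (left) and over 240 miRNAs above 0 in all 12 samples (right). On the left ad libitum 6 lies apart at -28.2 on the first component. On the right the groups are mixed along both axes and restricted 8 is highest on the second, at 9.71.

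Libraries of 1 group differed most in a handful of miRNAs. Over the 240 miRNAs the median SD within groups was 0.51 on the log2 scale, with 0.52 in ad libitum livers and 0.46 in restricted livers. The largest SD, 1.89, was that of miR-2411-3p, which ranged from 52.5 to 1159 in ad libitum livers and from 29.2 to 801 in restricted livers. miR-12030 (SD 1.46) was next, at 26.3 to 205 in ad libitum livers and 8.99 to 289 in restricted livers. miR-2332 (SD 1.40) ranged from 120 to 1091 in ad libitum livers and from 67.4 to 881 in restricted livers. miR-2411-3p and miR-2332 were highest in ad libitum 6, the shallowest library. miR-2411-3p and miR-12030 were lowest in restricted 16, the deepest restricted library. Whether depth has a part in this spread was not tested. Among the 141 miRNAs with a mean of at least 1000, miR-1 had the largest SD (1.31) and miR-100 the smallest (0.22). miR-100 lay between 31413 and 54930 in ad libitum livers and between 33713 and 42581 in restricted livers. These miRNAs were chosen after their values were seen.

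Restricted 8 stood apart in its sum of values. Its values summed to 8068257, while the other 5 restricted livers lay between 5056529 and 6090337. Its median deviation over the 240 miRNAs was 0.02 on the log2 scale, so the excess lay in abundant miRNAs: miR-148a had 1711147 there, against 691702 to 1051435 in the other restricted livers, and miR-143 765784 against 335869 to 468491. It held the highest value of the 12 livers for 45 of the 240 miRNAs. Of the ad libitum livers, ad libitum 15 held the highest for 40 and ad libitum 9 for 33, while ad libitum 15 and ad libitum 6 held the lowest for 36 each.

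No miRNA passed the threshold between the feeding groups. limma on log2(value + 1) tested 308 miRNAs and called 0 of them (0%) at an adjusted p under 0.05, and the lowest adjusted p was 0.144. At an unadjusted p under 0.05 there were 12: 3 higher in ad libitum livers (0.974% of those tested) and 9 lower (2.92%). The 9 include miR-29b and miR-29e, which are 2 names with identical values. These counts moved with single libraries. The number higher was 8 without ad libitum 6, 7 without ad libitum 3 and 1 without ad libitum 9, and the number lower was 15 without ad libitum 15 and 14 without ad libitum 7. As deposited, the groups did not overlap for 1 miRNA (0.325%), miR-133a, which was lower in ad libitum livers. A fit that took in the 5 control livers called 1 miRNA, miR-133a. The fold changes centred on a log2 value of -0.01, with 146 above 0 and 162 below. When each library was scaled to the same sum, the median moved by 0.16 to 0.15, and 10 of 14 miRNAs at an unadjusted p under 0.05 were higher. With equal sums miR-133a overlapped between the groups, and the 1 miRNA apart was miR-181b-1, at 237 to 406 per 1000000 of the sum in ad libitum livers, against 185 to 214 in restricted livers. As deposited miR-181b-1 overlapped, at 1128 to 2115 in ad libitum livers and 994 to 1661 in restricted livers. It was named after its values were seen.

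The precision of the comparison depended on the level of the miRNA. The median SE of the log2 fold change was 0.30 for the 240 miRNAs above 0 in all livers and 1.23 for the other 68. Of the 25 miRNAs with a log2 fold change past 1 in either direction, 21 were at 0 in at least 1 library and 4 were not: miR-1, miR-133a, miR-24 and miR-708. For 149 of the 308 the 95% confidence interval lay wholly between -1 and 1, so a change of more than a doubling or a halving lay outside the interval for these. For the remaining miRNAs the interval reached past a doubling or a halving.

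**Figure D3:**
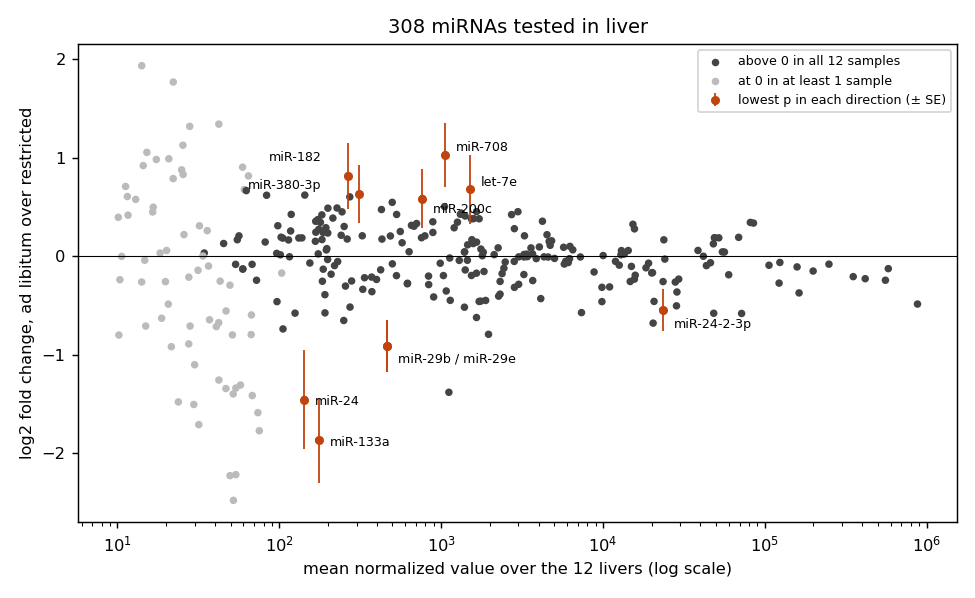
Log2 fold change of ad libitum over restricted livers (y axis) against the mean normalized value of the 12 livers (x axis, log scale) for the 308 tested miRNAs. Dark points were above 0 in all samples, grey points were at 0 in at least 1, and the named points with SE bars are the 5 with the lowest p in each direction. The grey points at low level spread from -2.48 to 1.93, and the miRNAs with a mean over 10000 lie between -0.68 and 0.34.

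The largest difference by p was that of miR-133a, a miRNA of skeletal and heart muscle. It had values of 29.9 at the lowest, 69.6 at the median and 129 at the highest in ad libitum livers, against 143, 261 and 436 in restricted livers. As deposited, all 6 ad libitum livers lay under all 6 restricted livers. With libraries scaled to equal sums the highest ad libitum liver, ad libitum 3, had 26.1 per 1000000 of its sum and the lowest restricted liver, restricted 5, 25.9, so that this pair overlapped. Log2 fold changes are given with their SE. The log2 fold change was -1.87 ± 0.43 (SE, limma adjusted p = 0.144). These are low values: 9 reads in ad libitum 6 and 59 in ad libitum 3, against 41 to 219 reads in restricted livers. The control livers ranged from 130 to 271, above every ad libitum liver and overlapping the restricted livers. With those livers in the fit the adjusted p was 0.0325.

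miR-1, which is made in the same muscle cells, varied widely. It had 64.4, 758 and 1355 (lowest, median and highest) in ad libitum livers, against 546, 1337 and 2914 in restricted livers, and the groups overlapped. The log2 fold change was -1.38 ± 0.61 (limma adjusted p = 0.969). The lowest value was that of ad libitum 15. The muscle list has 4 entries in the table, and the other two, miR-133b and miR-206, were at 0 in all 12 livers. The sum of the 4 ranged from 148 to 1402 in ad libitum livers and from 922 to 3350 in restricted livers. miR-499, a miRNA of heart and slow muscle that was not on the list and was looked at after its values were known, had a log2 fold change of -0.58 ± 0.43 (limma adjusted p = 0.97). The part of muscle RNA in these values was not tested.

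miR-29b, whose known targets include collagens, was among the 5 lowest p of the miRNAs with a lower mean in ad libitum livers. miR-29b and miR-29e hold identical values, so they are 1 measurement under 2 names. Both names are in the counts at an unadjusted p under 0.05 and take 2 of these 5 places. They had 241, 308 and 457 in ad libitum livers, against 425, 568 and 977 in restricted livers. Only the highest ad libitum liver lay above the lowest restricted liver. The log2 fold change was -0.91 ± 0.27 (limma adjusted p = 0.362). The far more abundant miR-29a, named after its values were seen, averaged 15775 ± 6170 in ad libitum livers and 25081 ± 9279 in restricted livers (SD, n = 6 each). Its log2 fold change was -0.68 ± 0.27 (limma adjusted p = 0.916). The control livers lay at 268 to 491 for miR-29b and at 11725 to 18337 for miR-29a, nearer to the ad libitum livers. miR-29c had a log2 fold change of -0.29 with an SE of 1.21, and was too low to place.

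miR-24, which is transcribed with miR-23 and miR-27, is listed under 3 names. Their sequences were not at hand, so which of the names share reads was not tested. miR-24-2-3p had 13363, 19147 and 23142 in ad libitum livers, against 18847, 27091 and 40197 in restricted livers. The groups overlapped, at a log2 fold change of -0.55 ± 0.21 (limma adjusted p = 0.912). miR-24-1-3p, outside the naming rule, had a log2 fold change of -0.50 ± 0.20 (limma adjusted p = 0.912). The name without a copy number, miR-24, was low, with 19.7 to 217 in ad libitum livers and 117 to 277 in restricted livers. Its log2 fold change was -1.45 ± 0.50 (limma adjusted p = 0.646), and 3 of its ad libitum values rested on 15 reads or fewer.

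miR-708, which lies in an intron of TENM4 in human, led the other direction. It had 635, 1415 and 2761 in ad libitum livers, against 450, 620 and 995 in restricted livers. The highest restricted liver lay above the 2 lowest ad libitum livers, and ad libitum 15 was highest. Its log2 fold change was 1.03 ± 0.33 (limma adjusted p = 0.465), with a 95% confidence interval of 0.34 to 1.72. The control livers spanned 473 to 1797. No other miRNA gene lies within 10000 bases of MIR708 in the RefSeq table (ARS-UCD2.0).

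miR-182, which shares a transcript with miR-183 and miR-96, had 192, 288 and 710 in ad libitum livers, against 103, 186 and 254 in restricted livers. Ad libitum 9 was far above the others. The log2 fold change was 0.82 ± 0.34 (limma adjusted p = 0.925). Its neighbours MIR183 and MIR96 lie within 10000 bases in the RefSeq table. miR-183 had a log2 fold change of 0.62 ± 0.44 and miR-96 one of -0.59 ± 0.95.

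The remaining miRNAs with the lowest p and a higher mean in ad libitum livers each overlapped between the groups. miR-380-3p, of the DLK1-DIO3 region, had 229, 390 and 543 in ad libitum livers, against 172, 224 and 336 in restricted livers. Its log2 fold change was 0.63 ± 0.30 (limma adjusted p = 0.969). The 5 control livers, at 614 to 970, lay above all 12. miR-200c, an epithelial miRNA, had a log2 fold change of 0.59 ± 0.30, while its neighbour miR-141 had -0.08 ± 0.52. let-7e had 0.68 ± 0.35 (0.42 without ad libitum 9), while miR-99b and miR-125a, whose genes lie beside it, had -0.08 ± 0.21 and -0.31 ± 0.21.

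**Figure D4:**
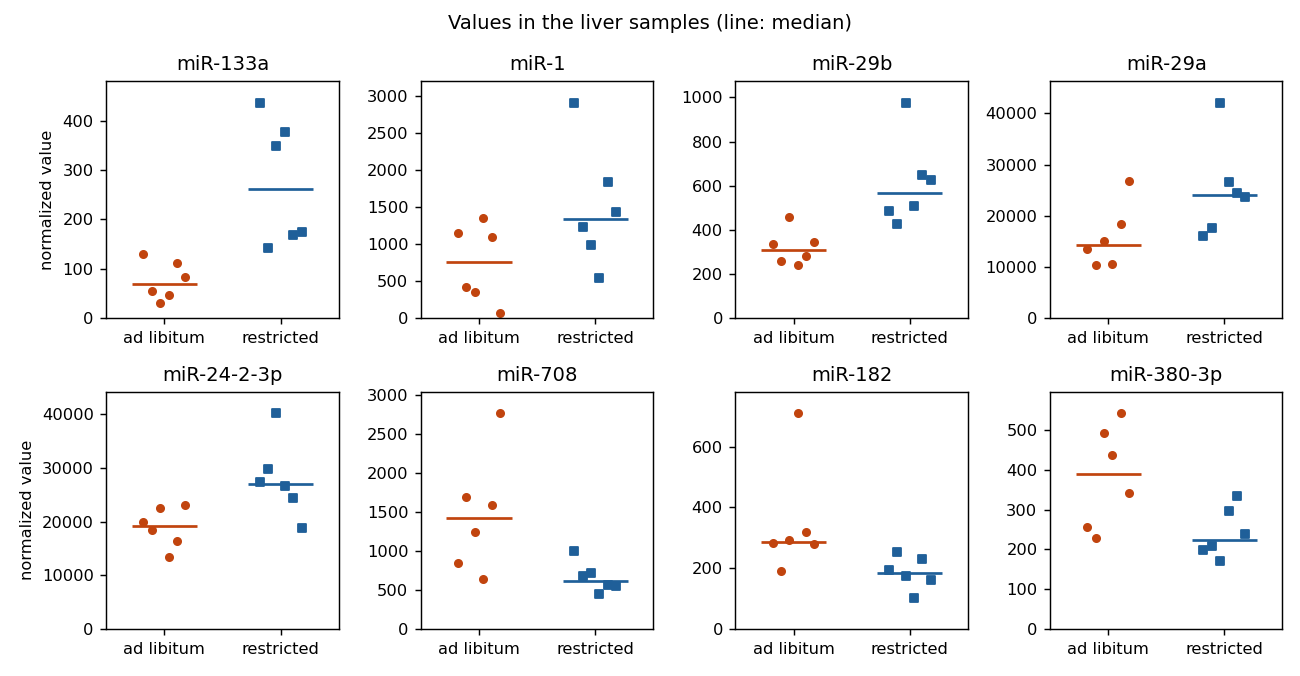
Normalized values of 8 miRNAs in the 6 ad libitum (left) and 6 restricted (right) livers, each point 1 sample and each line the group median, on linear axes that start at 0. On this deposited scale the groups are apart for miR-133a, with 129 as the highest ad libitum value and 143 as the lowest restricted value, and with equal sums they overlap. They overlap for the other 7.

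None of the 10 most abundant miRNAs passed the test. miR-148a averaged 725874 ± 178563 in ad libitum livers and 1032171 ± 354932 in restricted livers (SD, n = 6 each). The log2 fold change was -0.48 ± 0.23 (limma adjusted p = 0.969). The largest restricted value was that of restricted 8. miR-122 had a log2 fold change of -0.12 ± 0.30, with an interval of -0.76 to 0.51, and miR-192 had -0.24 ± 0.27. miR-194-2, which is transcribed with miR-192, had -0.06 ± 0.19. For miR-143 of smooth muscle and stroma (-0.23 ± 0.22), miR-26a (-0.21 ± 0.19), miR-21-5p (-0.08 ± 0.26), miR-126-3p (-0.15 ± 0.25), miR-30a-5p (-0.37 ± 0.26) and miR-99a-5p (-0.11 ± 0.30) the log2 fold changes were also small. All 10 were below 0, and 5 of them stayed below 0 after scaling to equal sums.

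The lists of miRNAs by cell type, family and genome position had 0 members past the adjusted threshold, as did the 308 as a whole (0%). Of the 6 hepatocyte miRNAs 1 was higher and 5 were lower in ad libitum livers, with a median log2 fold change of -0.18 beside -0.01 over all miRNAs tested. Their sum ranged from 1752232 to 2319725 in ad libitum livers and from 1847800 to 3702739 in restricted livers. All 7 blood and immune cell miRNAs were tested, and 5 were lower, with a median of -0.46. miR-142-5p, which blood cells express, had -0.46 ± 0.30 and miR-146a, an inducible regulator of inflammatory signalling, -0.57 ± 0.31. The 2 that were higher were miR-223, at 0.30, and miR-155, at 0.42. The summed values of all 7 overlapped, at 12496 to 25343 in ad libitum livers and 17782 to 42087 in restricted livers.

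The muscle list, described above, had a median of -1.62 over its 2 tested members. The remaining cell type lists had medians between -0.35 and 0.23. The 6 stellate and stromal miRNAs had a median of 0.01, with miR-199a-1-3p at 0.04 ± 0.25. Of the 6 epithelial miRNAs tested 4 were higher and 2 lower, with a median of 0.23, 0.24 above that of all miRNAs. After scaling to equal sums all 6 were above 0, beside 197 of all 308. The number above the median of all miRNAs was 5 of 6 with either scaling. The list includes miR-200a at -0.01 ± 0.36 and miR-200b at 0.38 ± 0.27. The endothelial pair miR-126-3p and miR-126-5p (-0.43 ± 0.36) had a median of -0.29. Of the erythroid miRNAs, miR-451 had -0.25 ± 0.40, miR-486 -0.04 ± 0.32 and miR-144 -1.41 ± 1.05, and their sum ranged from 2095 to 8397 in ad libitum livers and from 3001 to 10059 in restricted livers. The 3 adipocyte-linked miRNAs had a median of -0.35, with miR-378-2, from an intron of the PGC-1 beta gene, at 0.10 ± 0.24 and miR-365-3p at -0.38 ± 0.29.

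Of the 14 metabolism-linked miRNAs tested, 3 were higher and 11 lower, with a median of -0.17, and 2 had an unadjusted p under 0.05 (miR-29a and miR-29b, both lower), beside 12 of all 308 (3.9%), of which 9 were lower. miR-33a, which lies in an intron of the cholesterol regulator SREBF2, had a median of 0 in both groups and could not be placed (-0.24 ± 1.83). After scaling to equal sums 7 of the 14 were above 0, and the list lay 0.15 under the median of all miRNAs, against 0.16 under it as deposited. For the hepatocyte list 3 of 6 were then above 0, for the miR-30 family 3 of 7, and for the blood and immune cell list 2 of 7, as before. The directions counted for these lists are thus relative to a centre that moves with the scaling.

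Of the families, 9 of 10 let-7 entries had a higher mean log2 value in ad libitum livers, beside 146 of all 308, with a median of 0.17. Their sums overlapped, at 183120 to 535694 in ad libitum livers and 169013 to 326298 in restricted livers. The entries share libraries, so they are not independent of each other. The entry that was lower was let-7a-1-3p, the opposite arm. let-7f-2 had 0.34 ± 0.44 and let-7g 0.19 ± 0.28. The 7 miR-30 entries had a median of -0.19, with miR-30d at -0.19 ± 0.23. They include miR-30b-3p, an opposite arm without the printed seed, which was low (means of 12.9 and 7.34) and had 0.40. miR-30c, whose sequence is given above, had a difference of 0.00. The 12 members of the miR-17-92 cluster and its paralogs had a median of -0.19, with miR-92a-1 at -0.26 ± 0.20 and miR-25 at 0.02 ± 0.20. The miR-2284 and miR-2285 family, known from ruminants, has 49 entries in the table. 22 of them were at 0 in all livers and 12 were tested, with a median of -0.04. miR-2284x was the most abundant (0.01 ± 0.33), followed by miR-2285t (-0.07 ± 0.51).

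The DLK1-DIO3 region is an imprinted locus whose maternal copy carries many miRNAs. Of its 57 entries, found as miRNA genes between DLK1 and DIO3 in the RefSeq table (ARS-UCD2.0), 12 were at 0 in all livers and 36 were tested. 30 of the 36 were higher in ad libitum livers and 6 lower, beside 146 and 162 over all miRNAs tested. The median was 0.20, and 1 member, miR-380-3p, had an unadjusted p under 0.05, which is no larger a share than the 12 of all 308 (3.9%), of which 3 were higher. After scaling to equal sums 32 were above 0, and 32 lay above the median of all miRNAs. The sums overlapped, at 44643 to 93723 in ad libitum livers and 38558 to 89034 in restricted livers. miR-127 had 0.28 ± 0.25, miR-433 0.42 ± 0.42, and miR-411a, the most abundant, -0.19 ± 0.29. The members come from neighbouring genes and share libraries, so they are not independent of each other.

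**Figure D5:**
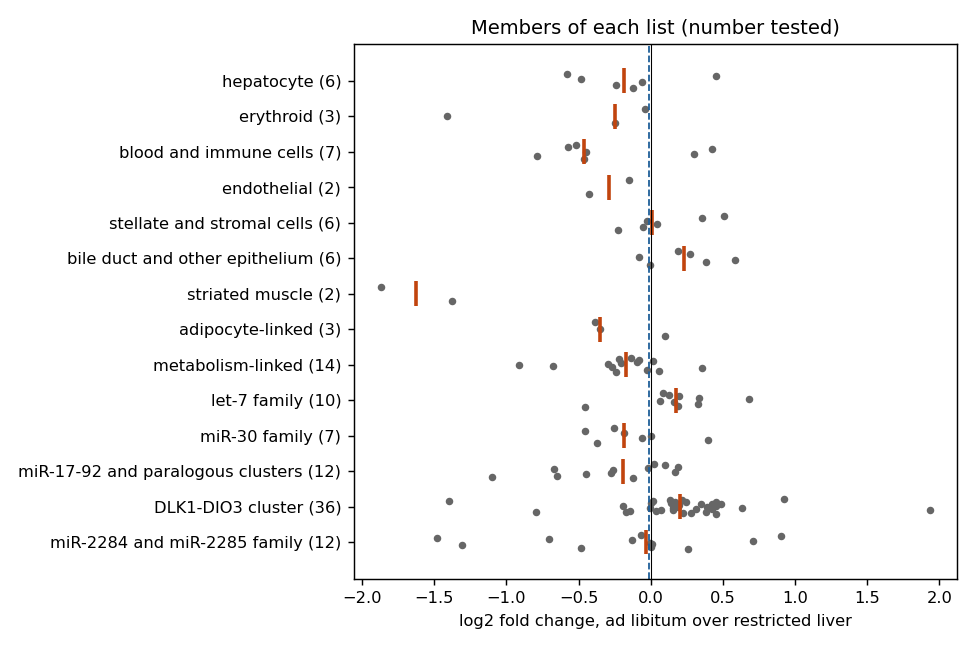
Log2 fold change of ad libitum over restricted livers for each tested member (points) of 14 lists of miRNAs, with the number tested in brackets, the list's median as a thick bar and the median of all 308 miRNAs (-0.01) as a dashed line. The bars lie between -0.46 and 0.23, apart from the muscle list with 2 members at -1.87 and -1.38.

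The feeding effect in liver was also set against that in the mammary tissues of the same groups. Fitted alone over the same 308 miRNAs, the fat pad had 47 past the threshold (15.3%) and the parenchyma 0 (0%). The median SE was 0.35 in liver, 0.20 in the fat pad and 0.25 in the parenchyma. The difference between the effects was tested directly over 345 miRNAs. Against the fat pad 3 passed (0.87%), and against the parenchyma 0 passed (0%).

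One of the 3, miR-6715, was among 19 of the 345 that were at 0 in all 12 livers and passed the filter on low values through other tissues. Its effect in liver was not measured, so it is no difference between the effects. The other 2, let-7a-1-3p and let-7a-3-3p, are copies by name with close values (means of 1518 and 1480 in ad libitum livers). Whether they share reads was not tested. let-7a-1-3p had a mean of 1518 ± 501 in ad libitum livers and 1995 ± 280 in restricted livers, against 977 ± 216 and 614 ± 120 in ad libitum and restricted fat pads (SD, n = 6 each). The difference of the effects was -1.12 ± 0.27 (limma adjusted p = 0.032). The copy let-7a-3-3p had -1.10 ± 0.27. In liver alone let-7a-1-3p had a log2 fold change of -0.45 and did not pass (limma adjusted p = 0.969). Its mean in the parenchyma was 2305 in ad libitum and 2877 in restricted samples, in the same direction as in liver. Against the parenchyma the largest difference by p was that of miR-133a, at -2.03 (limma adjusted p = 0.068). With the library number as a replicate block it passed (limma adjusted p = 0.0495). With libraries scaled to equal sums 0 passed against the parenchyma (lowest limma adjusted p = 0.188). The log2 fold change of miR-133a itself was -0.98 ± 0.32 in the fat pad and 0.16 ± 0.25 in the parenchyma.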

How the data were processed

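Small RNA libraries of the livers had been prepared by the authors. Of their processing, the submitters' notes list the tools bcl2fastq, FastQC, Trim Galore and also DESeq2, with no version or role. Not given in the sources used here were the read assigner, genome build and miRNA database. These deposited values are read counts per miRNA that the authors had normalized by size factors. Because each line is quoted a second time, the automatic check of the unit could not read the columns, so tests for counts were not used. The number of value steps, summed over all names, estimates the reads listed for miRNAs (826776 to 5146724 per liver library). Values held under several names, such as those of miR-29b and miR-29e, enter this sum once for each name. Any reads too few to be listed, or not assigned to a miRNA, are left out. How far this shifts the estimates was not tested.

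Log2(value + 1) was fitted with limma 3.58.1 (R 4.3.3, variance trend) for miRNAs with a mean of 10 or more, with Benjamini-Hochberg adjustment (threshold 0.05). Fold changes are on this scale, which shrinks those of low miRNAs above 0 and can widen those with a listed 0, since as many as 5 reads may lie behind it. Single values were tested by exact permutation, and correlations with 100000 resamples (Python 3.11.15). Nothing in the labels says how animals were housed or libraries batched, so p-values measure the spread between these samples.

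The comparison and the lists were chosen with earlier results of these data known. Named miRNAs are those past the threshold or, since none was, the 5 lowest p in each direction among those averaging 50 or more in either group, the 10 most abundant, and the 2 most abundant of each list. Of numbered copies the most abundant was kept. The authors' own fold changes and p-values in the table were not used. Alternatives covered the pseudocount, filters, scaling, covariates and each library left out. RefSeq gene names (ARS-UCD2.0) matched 515 of the 524 names.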

Additional observations from a re-analysis of the deposited data

Results flagged for a closer look

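Within the groups of 6, 13 values lay far enough from the others to pass Dixon's test at 95%, among 92 groups of values examined. Chance flags about 1 in 20, and the values of 1 library are not independent. Restricted 8 was highest among restricted livers in its sum of values (8068257), miR-148a (1711147), miR-143 (765784), miR-199a-1-3p (78138, others 44758 to 54764), miR-200a (19217, others 4148 to 6779) and miR-411a (33649, others 10005 to 17878). Among ad libitum livers, ad libitum 15 was highest in miR-30a-5p (266011, others 98600 to 130431), miR-200a (14168, others 3991 to 6798) and miR-378-2 (11924, others 4351 to 6666). Ad libitum 6 had the lowest score on the first component (-28.2, others 1.78 to 7.54) and ad libitum 9 the highest miR-182 (710, others 192 to 319). Restricted 5 had the highest miR-200c (989, others 487 to 594), and restricted 4 the highest miR-486 (3330, others 700 to 1477).

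The feeding effect differed between liver and fat pad by the test of the difference itself for 2 copies with close values. In log2 units of liver minus fat pad they were let-7a-1-3p (-1.12) and let-7a-3-3p (-1.10), each with a limma adjusted p of 0.032. In liver alone let-7a-1-3p did not pass (-0.45, limma adjusted p = 0.969).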

How the results depend on the processing

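The count of miRNAs past the threshold between the feeding groups stayed at 0 under 23 of 24 alternatives, and was 1 (miR-133a, adjusted p = 0.0325) with the control livers in the fit. Leaving out 1 library at a time gave 0 calls each time, with the lowest adjusted p between 0.0864 and 0.541, and leaving out ad libitum 6 and restricted 8 together, added after seeing the data, gave 0 with a lowest adjusted p of 0.702. With only the 240 miRNAs above 0 in all livers the lowest adjusted p was 0.0548. Over the 24 alternatives the log2 fold change of miR-133a ranged from -2.05 to -1.63 and that of miR-708 from 0.81 to 1.24. That of let-7e ranged from 0.42 (without ad libitum 9) to 0.85. None of the 10 leading names, with miR-29b and miR-29e among them, changed sign.

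The share of distance between the groups ranged from 6.47% to 9.84% over all 16 alternatives, with 6.47% to 8.82% when 1 library was left out, and none passed. The difference of mean log2 reads ranged from -0.43 to 0.093 when 1 library was left out. It was 0.093 without ad libitum 6, the shallowest library. The difference in the number of miRNAs above 0 ranged from -6.53 to 8.87 when 1 library was left out, and was -2.83 for miRNAs with a value of at least 50. The correlation of the first component with depth was -0.50 over the miRNAs above 0 in all livers (added after seeing the data), where the sign of a component has no meaning.

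Numbers are shared between tissues, not between the liver groups. No paired analysis was possible because ad libitum and restricted livers share no number. Each number has the same feeding group in liver, fat pad and parenchyma, but the labels do not say whether it names 1 animal. Same-numbered samples deviated together only weakly. The median correlation was 0.10 between liver and fat pad and 0.07 between liver and parenchyma (12 each). Of these, 6 and 4 were over 0.1. Weak correlations cannot show that same-numbered samples are from different animals. The main fit across tissues was made without pairing by number. With the number as a replicate block, 3 miRNAs passed for liver minus fat pad, as without it, miR-6715 (at 0 in all livers) among them. For liver minus parenchyma 1 (miR-133a) then passed, with a lowest limma adjusted p of 0.0495. With libraries scaled to equal sums and no block, 3 passed for liver minus fat pad. For liver minus parenchyma 0 passed with that scaling, with a lowest limma adjusted p of 0.188. The 68 tested miRNAs with a 0 in some library had a median SE of 1.23, and the other 240 one of 0.30. How far depth sets either was not tested.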
